A study of Mus musculus with 6 samples.

Results

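The genes described here encode stefins, cystatins and WAP-domain proteins, small inhibitors of proteases that neutrophils make in quantity. They were taken by symbol from a list of 10: Stfa1, Stfa2, Stfa2l1, Stfa3, BC100530, Cstb, Cst3, Slpi, Wfdc17 and Wfdc21. Of these, 9 were found among the 47561 features of the deposited files and BC100530 was absent under that symbol. RefSeq and GENCODE give its accession to the gene listed in the files as Cstdc5, whose values are described beside the members.

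The libraries came from neutrophils sorted by flow cytometry from peripheral mouse blood, 3 after 30 days of AVP administration and 3 from controls whose treatment label reads negative control. What AVP stands for is not spelled out in the labels, which give no strain or age and leave unsaid how many animals were used, so every p-value reflects variation among these libraries, part or all of which may be technical. Values are FPKM, sequenced fragments scaled to transcript length and library size.

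The sort was checked against marker genes. S100a8, a subunit of calprotectin, was at 95287 to 113983 FPKM after AVP and 105390 to 121812 FPKM in controls, and Csf3r, the G-CSF receptor, at 743 to 1144 FPKM after AVP and 918 to 1092 FPKM in controls. All 12 neutrophil markers were detected, 9 with a fold change above 0 and 3 below. Retnlg, Mmp8 and G0s2 were higher and Mmp9 lower after AVP without overlap, and Retnlg was at 9729 to 11049.7 FPKM after AVP and 4925 to 5538 FPKM in controls. Of the granule and precursor genes, Lcn2 (812 to 1019 FPKM after AVP, 236 to 475 FPKM in controls) and Ngp (13.9 to 39.6 FPKM after AVP, 0 to 13.6 FPKM in controls) were also higher without overlap. These were the 2 with a fold change above 0 among the 5 tested genes of that list. The other 3, Chil3, Camp and Mki67, lay below 0 with groups that overlapped. The 11 B cell markers summed to 2119.7, 6900.4 and 5157 FPKM in AVP replicates 1 to 3, against 7554, 8964 and 6619.5 FPKM in control replicates 1 to 3. Of them 10 had a fold change below 0 and 1 above, with Cd79b, Igkc and Pax5 lower and Ighd higher without overlap. Of the AVP libraries 2 stood apart in RNA of other cells. AVP replicate 1 had the most erythroid RNA (10 genes, 242672 FPKM, against 102758 to 154943 FPKM in the other 5 libraries) and the most basophil RNA (8 genes, 338 FPKM, against at most 31.1 FPKM), and the least B cell RNA. AVP replicate 3 had the most T and NK cell RNA (12 genes, 162 FPKM, against at most 16.6 FPKM) and the least monocyte RNA. The part of these in the results below was not tested, and values without either library are given beside the WAP genes.

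Stefins, also called type 1 cystatins, stay inside the cell and block papain-like cysteine proteases such as cathepsins B, H, L and S. The mouse carries a cluster of stefin A genes where the human genome has a single CSTA. Cystatin C, from Cst3, inhibits the same proteases outside the cell. WAP-domain proteins are named after whey acidic protein, and the best studied, SLPI, blocks neutrophil elastase and cathepsin G, the serine proteases stored in neutrophil granules.

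The 12 stefin A genes listed in the files include 11 that lie together on chromosome 16 between 36119946 and 36455392 (GRCm38, the assembly of the mm10 build). The start of each coding sequence is shown for the 8 that were above 0, because their likeness bears on every value below. Each stretch covers bases 1 to 105 from the start codon, taken from GENCODE transcripts, and capitals mark bases that differ from the gene at the head of its group.
Stfa1: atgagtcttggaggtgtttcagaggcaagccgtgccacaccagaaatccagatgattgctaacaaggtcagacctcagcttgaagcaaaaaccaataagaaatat
Cstdc5: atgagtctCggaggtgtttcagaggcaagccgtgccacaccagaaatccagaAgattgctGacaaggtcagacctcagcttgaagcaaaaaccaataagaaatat
Csta3: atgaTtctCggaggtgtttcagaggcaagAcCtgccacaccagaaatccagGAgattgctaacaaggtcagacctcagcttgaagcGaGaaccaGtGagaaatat
Stfa2l1: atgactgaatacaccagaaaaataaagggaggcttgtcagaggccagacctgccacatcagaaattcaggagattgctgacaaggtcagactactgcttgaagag
Stfa2: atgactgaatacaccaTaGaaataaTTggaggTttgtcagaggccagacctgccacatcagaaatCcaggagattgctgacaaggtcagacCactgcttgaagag
Stfa3: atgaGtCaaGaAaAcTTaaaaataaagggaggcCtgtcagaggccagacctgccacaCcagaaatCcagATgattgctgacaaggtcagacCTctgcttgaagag
Cstdc4: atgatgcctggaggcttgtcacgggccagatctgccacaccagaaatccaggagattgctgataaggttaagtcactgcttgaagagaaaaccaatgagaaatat
Csta2: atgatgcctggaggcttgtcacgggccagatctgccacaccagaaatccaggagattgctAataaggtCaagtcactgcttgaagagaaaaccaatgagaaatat

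The groups are headed by Stfa1, Stfa2l1 and Cstdc4. Stfa1 and Cstdc5 differed at 6 of 294 coding bases, Stfa2l1 and Stfa2 at 11 of 312, and Cstdc4 and Csta2 at 9 of 294. Over the 45 pairs among 10 locus genes with a paired GENCODE transcript, coding identity ran from 73.4% to 98%, with a median of 79.9%. Cstb, the gene of stefin B on chromosome 10 (78425670 to 78427622), shared 52.2% to 62.3% with them. No window of 151 bases, the labelled read length, was identical between any of these 10 transcripts. Of windows of 50 bases, 26.9% of those in Stfa1, 33.5% in Cstdc5, 35.6% in Cstdc4, 16.8% in Stfa2l1 and 14.7% in Stfa2 recurred in another copy. How the authors' processing assigned such fragments is not given in the sources used here, so the split between copies is uncertain. Sums over copies depend less on that split but would lack any shared fragments that were left out, which was not tested.

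**Figure D1:**
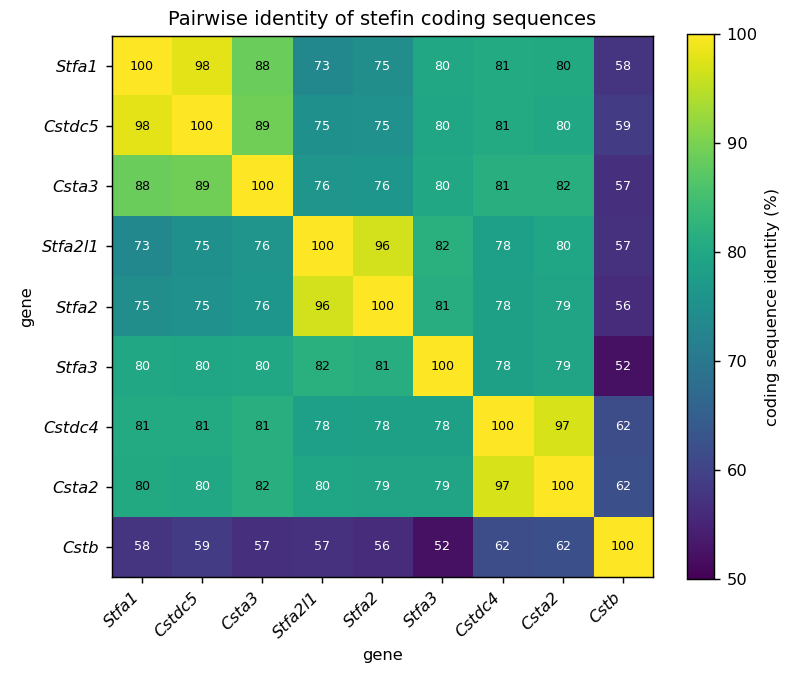
Coding sequence identity in percent between 8 stefin A locus genes and Cstb, for every pair (rows and columns are genes, colour from 50% to 100%). The 3 nearest pairs are Stfa1 with Cstdc5 (98%), Cstdc4 with Csta2 (96.9%) and Stfa2l1 with Stfa2 (96.5%).

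The 3 WAP-domain members were the most abundant of the 9 by mean and stood higher in AVP libraries, and none passed the test over all genes. Of 8523 genes tested with limma, 0 were higher (0% called) and 0 lower (0% called) at an adjusted p under 0.05, and 0 of the 9 members passed. At an unadjusted p under 0.05, 4 of the 9 members were higher (Wfdc17, Wfdc21, Slpi and Stfa1) and 0 lower, where 4.69% of all genes were higher (400 genes) and 3.78% lower (322 genes), or 8.47% in either direction. That count depends on the intensity trend of the limma fit. Without the trend the unadjusted limma p was 0.122 for Wfdc17, 0.189 for Wfdc21, 0.165 for Slpi and 0.056 for Stfa1. The adjusted p of the members by limma lay between 0.415 and 0.946. Fold changes are on the scale of log2(FPKM + 1) after library scaling. The added 1 shrinks the change of low genes, while a value of 0 in a library can enlarge it or turn its sign from that of the means.

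Wfdc17, also known as AMWAP and described in activated mouse microglia and macrophages, had 3569.6, 2740.2 and 3991 FPKM in AVP replicates 1 to 3, against 1690.3, 2254 and 2637 FPKM in control replicates 1 to 3. The lowest AVP library exceeded the highest control by 103 FPKM, so the groups did not overlap. The means were 3434 ± 636 FPKM after AVP and 2194 ± 476 FPKM in controls (SD, n = 3 each). On the log2 scale the difference was 0.73 (SE 0.24, 95% confidence interval 0.17 to 1.29; limma adjusted p = 0.415), and it came to 0.64 without AVP replicate 1 and 0.63 without AVP replicate 3, in a range of 0.55 to 0.94 over all 6 omissions. By the mean of the group Wfdc17 ranked 21 of all features after AVP and 31 in controls.

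Wfdc21, which encodes a secreted WAP protein and lies in the same cluster as Wfdc17, had 1725, 1678 and 2296 FPKM in AVP replicates 1 to 3, against 1191, 1446 and 1433 FPKM in control replicates 1 to 3. The groups did not overlap, the gap being 232 FPKM. Its log2 fold change of 0.56 (SE 0.20; limma adjusted p = 0.454) stayed at 0.56 without AVP replicate 1 and came to 0.43 without AVP replicate 3, in a range of 0.43 to 0.69 over all 6 omissions. Both genes lie on chromosome 11, Wfdc17 from 83704056 to 83706269 and Wfdc21 from 83746940 to 83752646. The ratio of Wfdc17 to Wfdc21 within a library, which no scaling can move, was 2.07, 1.63 and 1.74 after AVP and 1.42, 1.56 and 1.84 in controls, and its groups overlapped.

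Slpi, the secretory leukocyte protease inhibitor on chromosome 2 (164354070 to 164356507), had 1696, 2319.7 and 1824 FPKM in AVP replicates 1 to 3, against 1097, 1161 and 1818 FPKM in control replicates 1 to 3. On the deposited scale AVP replicate 1 lay below control replicate 3, so the groups overlapped, and they separated after library scaling. The difference on the log2 scale was 0.63 (SE 0.23; limma adjusted p = 0.479). It came to 0.66 without AVP replicate 1 and 0.68 without AVP replicate 3, and over all 6 omissions it ranged from 0.48 without control replicate 1 to 0.85 without control replicate 3.

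After scaling, the groups did not overlap in 3 of 9 members, all of them WAP genes and all higher after AVP, where 7.4% of all genes did so in that direction. No member was lower without overlap, where 6.54% of all genes were, which makes 13.9% of all genes in either direction. Abundant genes did so more often. Of 615 genes with a mean of at least 100 FPKM, a limit set after the values were seen, 17.1% were higher and 8.94% lower without overlap, and all 3 WAP members are among the higher ones. An exact two-sided permutation test of each of the 3 returned 0.1, the floor of p for 3 libraries a group. Together the WAP members took 0.842%, 0.853% and 1.02% of the total FPKM in AVP replicates 1 to 3 and 0.527%, 0.597% and 0.742% in control replicates 1 to 3.

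**Figure D2:**
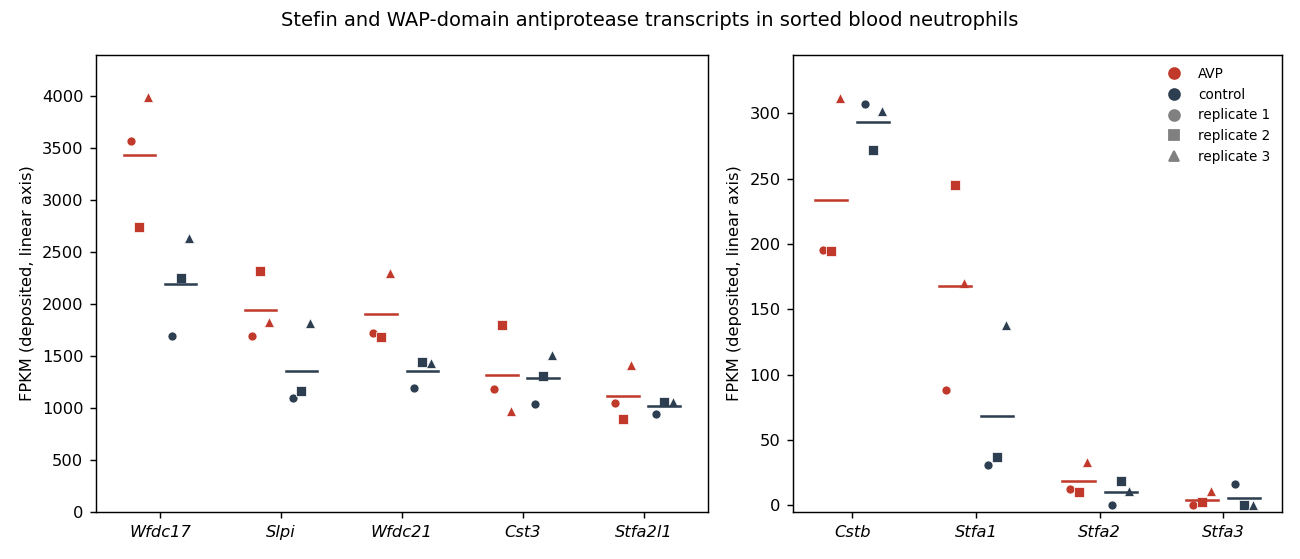
Deposited FPKM of the 9 members in each library on linear axes, 5 abundant members on the left and 4 lower ones on the right. Red marks are AVP and dark marks control libraries, the shape gives the replicate number, and the lines are group means. The groups separate for Wfdc17 and Wfdc21 and overlap in the other 7 at these unscaled values.

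Wfdc18, a further WAP gene of the same chromosome 11 cluster, was low, with 0, 3.39 and 0 FPKM in AVP replicates 1 to 3, against 0, 12.7 and 8.85 FPKM in control replicates 1 to 3. The groups overlapped (log2 fold change -1.64, SE 1.09). In FPKM files a 0 may stand for an estimate that failed, so a gene is called listed at 0 and not absent. Of the 22 WAP-domain genes found in the files, 16 were listed at 0 in all 6 libraries, 4 were tested, and 3 of those 4 had a fold change above 0 and 1 below.

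Among the stefin A genes, Stfa2l1 held most of the level, and its groups overlapped. It had 1045, 895 and 1409 FPKM in AVP replicates 1 to 3, against 939, 1057 and 1055 FPKM in control replicates 1 to 3. AVP libraries were both the lowest and the highest of the 6. Its log2 fold change was 0.19 (SE 0.22, 95% confidence interval -0.32 to 0.70). It came to 0.02 without AVP replicate 3 and to 0.39 without AVP replicate 2.

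Cstdc4, the second most abundant gene of the locus and no member of the list, had 575, 541 and 881 FPKM in AVP replicates 1 to 3, against 517, 446 and 436 FPKM in control replicates 1 to 3. These groups did not overlap (log2 fold change 0.56, SE 0.24, adjusted p = 0.569 by limma). Within a library the ratio of Cstdc4 to Stfa2l1 was 0.55, 0.604 and 0.625 after AVP and 0.55, 0.422 and 0.414 in controls.

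Stfa1, which encodes an intracellular stefin A, had 88, 245 and 171 FPKM in AVP replicates 1 to 3, against 30.8, 36.9 and 138 FPKM in control replicates 1 to 3. The groups overlapped through control replicate 3, which exceeded AVP replicate 1. Its log2 fold change was 1.57 (SE 0.59, adjusted p = 0.492 by limma). Over the omission of each library it ranged from 1.17 without control replicate 1 to 2.24 without control replicate 3, and the groups separated without control replicate 3 (2.24) or without AVP replicate 1 (1.92) and overlapped in the other 4 omissions.

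Cstdc5, its near-identical copy and the gene that carries the accession of BC100530, had its highest levels in control libraries. It had 26.9, 17.1 and 27 FPKM in AVP replicates 1 to 3, against 69.2, 39.1 and 0 FPKM in control replicates 1 to 3. Its mean was lower after AVP (23.7 FPKM, against 36.1 FPKM in controls) while its log2 fold change was 0.84 (SE 1.41). The control library with the most Stfa1 was thus the one in which Cstdc5 was listed at 0. Summed, Stfa1 and Cstdc5 came to 115, 262 and 197 FPKM after AVP and 100, 76.1 and 138 FPKM in controls. The log2 fold change of the sum was 0.91 (SE 0.34), below that of Stfa1 alone.

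The remaining copies were low and often listed at 0. Stfa2 had 12.3, 10.5 and 33.4 FPKM in AVP replicates 1 to 3, against 0, 18.6 and 11.1 FPKM in control replicates 1 to 3. Its log2 fold change of 1.55 (SE 1.09) rested on the control library listed at 0 and came to 0.24 without it. Stfa3 had 0, 2.41 and 10.9 FPKM in AVP replicates 1 to 3, against 16.7, 0 and 0 FPKM in control replicates 1 to 3, and its groups overlapped. Its log2 fold change was 0.41 (SE 1.31), of opposite sign to the difference of the means, 4.42 FPKM after AVP and 5.57 FPKM in controls.

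Csta3, nearest to Stfa1 and Cstdc5 in sequence, had 151, 25.6 and 93.1 FPKM in AVP replicates 1 to 3, against 41, 52.8 and 0 FPKM in control replicates 1 to 3. Csta2 had 26, 19.7 and 0 FPKM in AVP replicates 1 to 3, against 0, 56.7 and 0 FPKM in control replicates 1 to 3. For scale, the level of Csta2 in control replicate 2 corresponds to about 547 fragments and that of Stfa2 in the same library to about 133, by the depth estimated for these libraries. Such levels stood beside a 0 in another library of the same group, and the part of counting error in this was not tested.

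Of the 12 stefin A genes in the files, 4 were listed at 0 in all libraries and 8 met the filter, which a gene could meet through the AVP libraries alone. Of these 8, all had a fold change above 0 and 0 passed the test, and the median log2 fold change was 0.99, against 47.7% above 0 and a median of -0.04 over all 8523 genes. In 3 of the 8, each with at least 1 control library listed at 0, the mean FPKM was nevertheless lower after AVP: Cstdc5, Stfa3 and Csta2 (15.2 FPKM after AVP, 18.9 FPKM in controls). Summed over the locus, the level was 1924, 1757 and 2624 FPKM in AVP replicates 1 to 3, against 1614, 1708 and 1640.4 FPKM in control replicates 1 to 3. The log2 fold change of this sum was 0.41 (SE 0.20, 95% confidence interval -0.05 to 0.87), and its groups did not overlap. Without its 2 most abundant genes, Stfa2l1 and Cstdc4, a choice made after the values were seen, the sum was 305, 321 and 335 FPKM after AVP and 158, 204 and 149 FPKM in controls. The single copies in that sum varied far more between libraries of a group than the sum itself.

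**Figure D3:**
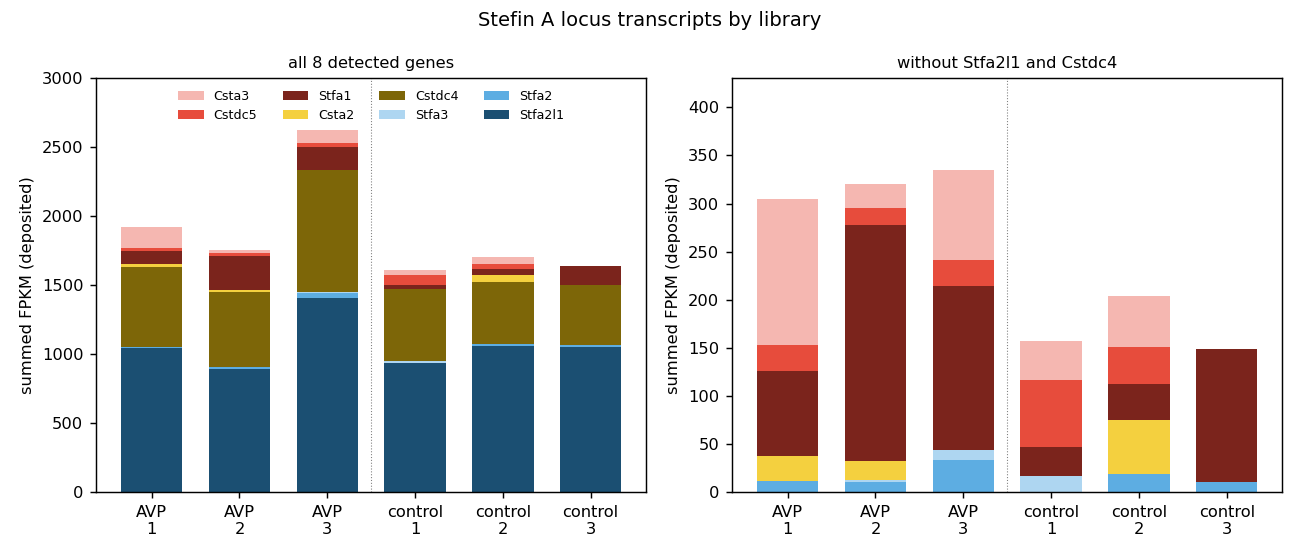
Deposited FPKM of the 8 stefin A locus genes above 0, stacked by library, with all genes on the left and without Stfa2l1 and Cstdc4 on the right. The right panel shows sums of 305 to 335 FPKM in AVP libraries and 149 to 204 FPKM in control libraries, made up of different copies in different libraries.

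Cstb and Cst3, the stefin and cystatin with single-copy genes, had groups that overlapped and intervals that include 0. Cstb, whose loss causes progressive myoclonus epilepsy in humans, had 195, 195 and 312 FPKM in AVP replicates 1 to 3, against 307, 272 and 302 FPKM in control replicates 1 to 3. AVP replicates 1 and 2 lay below all controls and AVP replicate 3 above them. Its log2 fold change was -0.28 (SE 0.25, 95% confidence interval -0.85 to 0.29). It came to -0.49 without AVP replicate 3, where the groups did not overlap, and to -0.11 without AVP replicate 2.

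Cst3, on chromosome 2 (148871722 to 148875512), had 1182, 1797 and 974 FPKM in AVP replicates 1 to 3, against 1037, 1307 and 1511 FPKM in control replicates 1 to 3. Both the highest and the lowest library were AVP libraries, and the log2 fold change was 0.09 (SE 0.25, 95% confidence interval -0.50 to 0.67). The ratio of Slpi to Cst3 within a library was 1.43, 1.29 and 1.87 after AVP and 1.06, 0.888 and 1.203 in controls. These ratios did not overlap between the groups (two-sided exact permutation p = 0.1, again the floor).

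**Figure D4:**
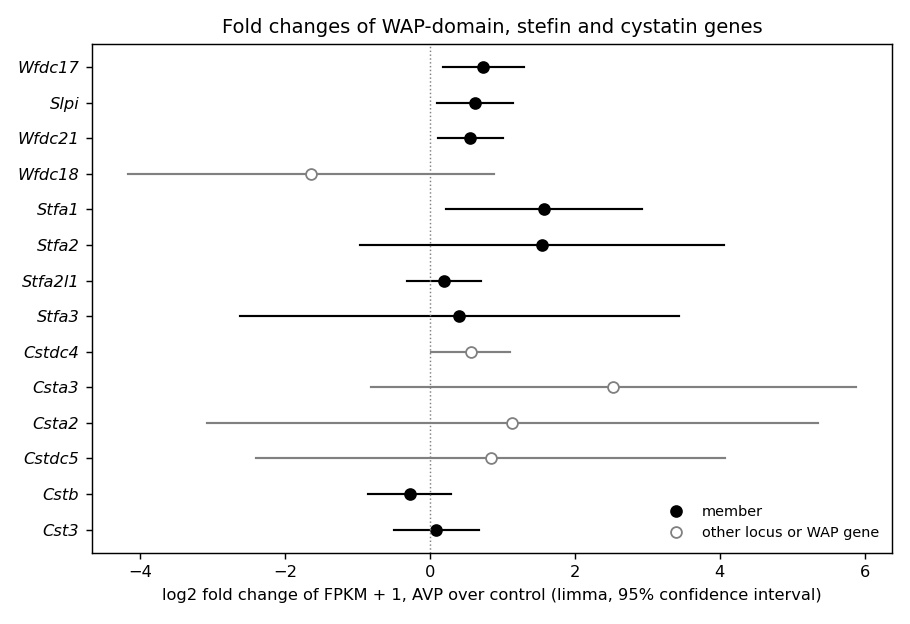
Log2 fold change of FPKM + 1, AVP over control, with 95% confidence intervals by limma, for the 9 members (filled) and 5 further genes of the stefin A locus and WAP family (open). With the intensity trend, the intervals of Wfdc17, Slpi, Wfdc21, Stfa1 and Cstdc4 lie above 0 without adjustment for the number of genes. Those of low copies such as Csta2 and Csta3 span several units.

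In level per transcript length, the order in AVP libraries was Wfdc17, Slpi, Wfdc21, Cst3, Stfa2l1, Cstb, Stfa1, Stfa2 and Stfa3, and it was the same by mean in controls. By the ranges of each group, Wfdc17 stood clear of Slpi in AVP libraries and overlapped it in controls. Compared within a library, Wfdc17 exceeded Slpi in every library of both groups. In both groups Slpi overlapped Wfdc21, Wfdc21 overlapped Cst3 and Cst3 overlapped Stfa2l1. Stfa2l1 stood clear of Cstb in both groups, by 895 to 1409 against 195 to 312 FPKM in AVP libraries and 939 to 1057 against 272 to 307 FPKM in controls. Cstb overlapped Stfa1 in AVP libraries and stood clear of it in controls, and Stfa1 stood clear of Stfa2 in both groups.

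The libraries carried RNA of other leukocytes, and Cst3 is also abundant in monocytes and dendritic cells. In bulk samples, fewer cells of a type and less RNA per cell cannot be told apart. The 18 monocyte markers, of which 0 were listed at 0 in all libraries, summed to 1065, 1366 and 282 FPKM in AVP replicates 1 to 3, against 626, 1049 and 1459 FPKM in control replicates 1 to 3. Of the 17 that were tested, 7 had a fold change above 0 and 10 below. The 2 libraries lowest in these markers, AVP replicate 3 and control replicate 1, were also the 2 lowest in Cst3, and the 2 highest in the markers were the 2 highest in Cst3. The part of monocyte RNA in the level of Cst3 was not tested.

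Wfdc17 and Wfdc21 were each highest in AVP replicate 3, where the monocyte markers were lowest. Within the controls, Wfdc17 and Slpi stood in the order of the markers, lowest in replicate 1 and highest in replicate 3, and Slpi was highest in AVP replicate 2, the AVP library with the most marker RNA. The part of monocyte RNA in these genes was not tested. Set against S100a8 within each library, the groups did not overlap for Wfdc17 (0.0375, 0.0256 and 0.035 after AVP, against 0.0139, 0.0185 and 0.025 in controls). Nor did they for Wfdc21 (0.0181, 0.0157 and 0.0201 after AVP, against 0.0098, 0.0119 and 0.0136 in controls). They overlapped for Slpi (0.0178, 0.0217 and 0.016 after AVP, against 0.009, 0.0096 and 0.0172 in controls) and also for Stfa2l1, Cst3 and Cstb.

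**Figure D5:**
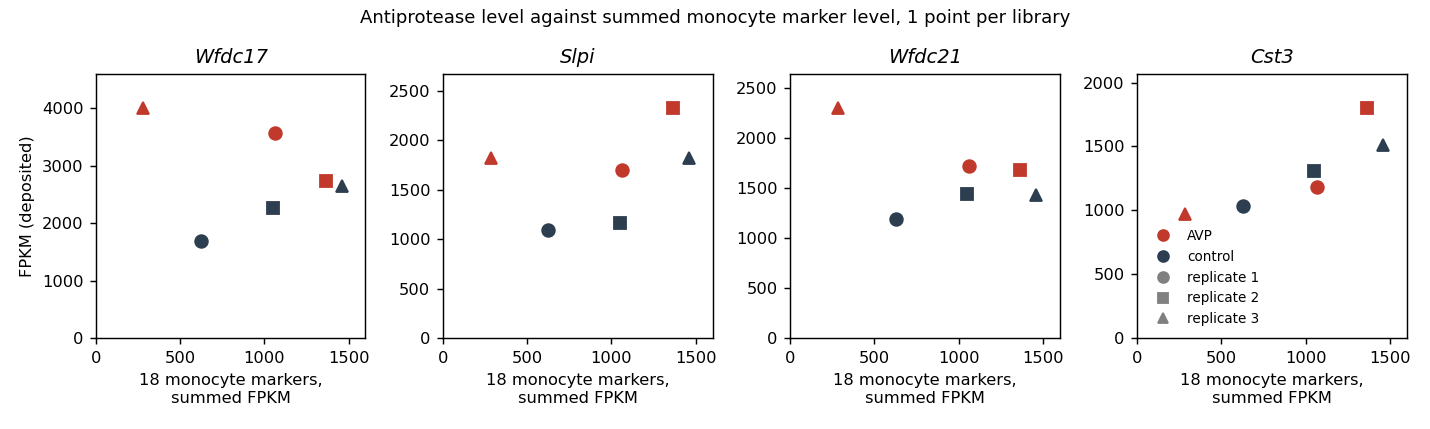
Deposited FPKM of Wfdc17, Slpi, Wfdc21 and Cst3 (vertical axes, from 0) against the summed FPKM of 18 monocyte markers (horizontal axis), 1 point per library, AVP in red and control in dark, shapes by replicate. Cst3 is lowest at 282 and highest at 1366 summed marker FPKM, while Wfdc17 is highest at 282.

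No tested protease passed the test. Of 9 tested lysosomal proteases, mostly cysteine cathepsins, 4 had a fold change above 0 and 5 below, with a median log2 fold change of -0.06. Ctss, the cathepsin of antigen-presenting cells and itself a monocyte marker, had 278, 488 and 85.4 FPKM in AVP replicates 1 to 3, against 230, 434 and 461 FPKM in control replicates 1 to 3. For Ctsh, the gene of cathepsin H, the difference on the log2 scale was -0.39 (SE 0.44), and for Ctsl, the gene of cathepsin L, 0.93 (SE 0.64). The elastase gene Elane and the cathepsin G gene Ctsg, the targets of SLPI, were listed at 0 throughout, and no level of inhibitor was set against that of its target.

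Of 8 tested metalloproteases, 4 lay above 0 and 4 below. Adam8, which encodes a membrane metalloprotease, had the smallest p of them (log2 fold change 1.29, SE 0.35, adjusted p = 0.305 by limma). On the same scale Mmp8, the neutrophil collagenase gene, was at 0.50 (SE 0.25) and Mmp9, a gelatinase gene, at -0.85 (SE 0.35). Among other inhibitors, Serpinb1a, which also blocks neutrophil serine proteases, had 9.91, 35 and 17.2 FPKM in AVP replicates 1 to 3, against 18.1, 66.3 and 38.8 FPKM in control replicates 1 to 3. All 3 tested serpins lay below 0, with a median log2 fold change of -0.87, and 0 passed. For Serpinb6a the mean was nevertheless higher after AVP (4.60 FPKM, against 4.27 FPKM in controls). A further 8 serpins above 0 did not meet the filter. Pi16 had 26.6, 32.6 and 33.2 FPKM in AVP replicates 1 to 3, against 9.75, 15.5 and 23.5 FPKM in control replicates 1 to 3 (log2 fold change 1.03, SE 0.42).

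Genes with profiles nearest to a member were sought among 4412 named protein-coding genes, by the mean absolute difference of log2(FPKM + 1) over the 6 libraries, each gene centred on its own mean. Nearest to Cst3 was Oaz1 (0.05), to Stfa2l1 Capns1 (0.04), to Cstb Tmem234 (0.05) and to Wfdc21 Arid4a (0.09). Nearest to Slpi were Gapdh (0.07) and H2bc8 (0.09), and nearest to Wfdc17 Heca (0.11) and Lilr4b (0.12). Stfa1 was nearest to Ipmk (0.29), a looser match. Gapdh, a gene with many pseudogene copies, was at only 9.56 to 13.7 FPKM after AVP and 5.72 to 11.1 FPKM in controls, and the effect of those copies on its level was not tested.

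Promoter windows, 250 bases before to 50 after the annotated start, were available for 7 of the 9 members in a RefSeq table (GRCm38.p6). They are shown for the 4 members with a window and a mean above 500 FPKM and for Stfa2, the low copy of Stfa2l1. Capitals mark matches to C/EBP (TTGCNNAAT), PU.1 (GAGGAAGT), TATA box (TATAAA) or GC box (GGGCGG) motifs on either strand and, in the stefin promoters, a run shared by the locus.
Slpi: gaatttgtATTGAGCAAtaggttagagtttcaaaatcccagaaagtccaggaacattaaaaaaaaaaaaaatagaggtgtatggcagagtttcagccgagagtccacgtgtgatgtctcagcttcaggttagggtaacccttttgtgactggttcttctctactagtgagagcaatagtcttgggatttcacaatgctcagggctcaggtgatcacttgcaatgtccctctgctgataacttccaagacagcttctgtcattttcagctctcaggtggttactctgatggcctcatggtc
Wfdc17: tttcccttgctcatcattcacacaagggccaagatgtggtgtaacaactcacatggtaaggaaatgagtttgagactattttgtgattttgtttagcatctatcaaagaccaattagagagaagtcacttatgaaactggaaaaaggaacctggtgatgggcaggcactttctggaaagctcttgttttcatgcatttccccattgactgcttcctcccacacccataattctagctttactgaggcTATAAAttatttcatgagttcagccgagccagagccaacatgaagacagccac
Cst3: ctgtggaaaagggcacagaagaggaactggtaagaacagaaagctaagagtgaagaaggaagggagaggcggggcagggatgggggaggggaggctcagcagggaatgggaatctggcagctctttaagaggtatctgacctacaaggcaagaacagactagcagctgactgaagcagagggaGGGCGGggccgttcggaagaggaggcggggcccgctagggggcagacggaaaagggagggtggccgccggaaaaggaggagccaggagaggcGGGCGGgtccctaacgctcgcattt
Stfa2l1: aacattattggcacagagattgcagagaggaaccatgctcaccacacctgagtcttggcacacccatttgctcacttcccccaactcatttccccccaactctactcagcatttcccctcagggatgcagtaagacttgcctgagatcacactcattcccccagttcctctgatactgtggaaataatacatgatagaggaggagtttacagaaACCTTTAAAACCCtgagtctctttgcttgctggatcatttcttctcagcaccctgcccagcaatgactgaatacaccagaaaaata
Stfa2: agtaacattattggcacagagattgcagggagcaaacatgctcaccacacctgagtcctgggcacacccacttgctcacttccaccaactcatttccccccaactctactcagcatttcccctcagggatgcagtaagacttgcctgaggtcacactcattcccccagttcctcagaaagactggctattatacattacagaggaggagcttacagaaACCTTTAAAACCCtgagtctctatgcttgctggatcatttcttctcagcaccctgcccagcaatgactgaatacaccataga

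The windows lie at chr2:164356458-164356757 on the minus strand (Slpi), chr11:83703806-83704105 on the plus strand (Wfdc17), chr2:148875463-148875762 on the minus strand (Cst3), chr16:36156561-36156860 on the plus strand (Stfa2l1) and chr16:36408314-36408613 on the minus strand (Stfa2). Slpi held a match to the C/EBP letters, as did 2.4% of all 32851 windows, and Wfdc17 one to the TATAAA letters, as did 13.6%, at -3 to 2 counted from the annotated start as 0 and thus across the start itself. Cst3 held the GC box letters at 2 places, present in 35.7% of windows, in a window of 60.3% GC, while Slpi and Wfdc17 were at 43.3% and 42% GC. The PU.1 letters (3.2% of windows) had no match in these 7 windows.

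The run ACCTTTAAAACCC was the longest shared by 7 of the 8 stefin A genes above 0, all but Csta2, whose window lacked it. It stood 36 to 24 bases before the start of Stfa2l1. Of all 32851 windows 9 held it, 8 of them in the stefin A locus. The Stfa2l1 and Stfa2 windows were 90.5% identical, while the levels of the genes were 895 to 1409 against 10.5 to 33.4 FPKM in AVP libraries and 939 to 1057 against 0 to 18.6 FPKM in controls.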

How the data were processed

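Per the labels' protocols, RNA of sorted mouse blood neutrophils was sequenced in pairs from TruSeq libraries. Tools named in the submitters' processing notes include HISAT2 (2.1), cutadapt (1.16.5) and featureCounts (1.6.4), with the mm10 build; their roles are unstated. Values in the deposited files are taken to be FPKM per gene, which the authors did not name as a unit in the files: they are not whole numbers and sum to 755140 to 829725 per library. No total counts come with such values, and depth, estimated from the step of low values in short pseudogenes, was about 14199000 to 16845000 fragments. Relative counting error is larger for low values.

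Testing was limited to 8523 genes that reached 1 FPKM in 3 or more libraries. A trimmed mean of log ratios set the library scaling (trimming 30% of the ratios and 5% of the levels on both sides), with factors of 0.892 to 1.04. Values were analysed as log2(FPKM + 1), and AVP was tested against control with limma 3.58.1 in R 4.3.3, with an intensity trend, Benjamini-Hochberg adjustment over all genes and a threshold of 0.05. Printed FPKM are the deposited values. The procedure was tested on simulated data with normal noise. The changes put in were larger than those of the WAP members and spared low genes, so the simulation does not speak to either.

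Names were matched to RefSeq for 44705 of 47561 features (94%). Coding sequences came from GENCODE M21 transcripts paired with a RefSeq accession, aligned with Biopython 1.88. The members, gene lists and tests were chosen with earlier results of these data known. Genes named beside the members were, per list, the 3 with the highest mean and the 2 with the smallest p, of which the text gives a part. Alternatives were other scalings, pseudocounts, filters and moderation, a replicate block, summed stefin copies and leaving out each library. Plots were made with Python 3.11.15 and matplotlib 3.10.9.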

Additional observations from a re-analysis of the deposited data

Results flagged for a closer look

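The values here belong to protease and inhibitor genes that the filter on low values kept out of the test. Each was above every control library in at least 1 AVP library and reached 5 FPKM there, a limit set after seeing the data. Genes of the opposite pattern were not sought. An example is Serpinb6b, a serpin gene also kept out of the test, at 17.6 FPKM in control replicate 2 and listed at 0 in every AVP library. Cst7, the gene of the leukocyte cystatin F, was at 18.1 FPKM in AVP replicate 1 and at 0.26 FPKM or less in the other 5 libraries. That library also held the basophil protease Mcpt8 at 230 FPKM, listed at 0 in the other 5, and the part of basophil RNA in Cst7 was not tested. In the same library Serpine2 was at 8.53 FPKM and the serine protease gene Prss57 at 5.06 FPKM. Serpina3g was at 9.49, 6.50 and 0.44 FPKM in AVP replicates 1 to 3, against 0.258 FPKM or less in controls. Prtn3, the gene of proteinase 3, was at 7.6 FPKM in AVP replicate 2. In AVP replicate 3, Gzmb, the gene of granzyme B, was at 11.5 FPKM, Ctsw, a cathepsin of cytotoxic lymphocytes, at 5.15 FPKM and Serpina3f at 5.83 FPKM. The 12 T and NK cell markers summed to 162 FPKM in that library and to 3.11 and 15.4 FPKM in the other AVP libraries, against 4.69 to 16.6 FPKM in controls.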

How the results depend on the processing

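Under each of 18 alternatives 0 members passed the test over all genes. Of 153 fold changes of members recomputed, 149 kept their direction and 4 reversed: Cst3 came to -0.11 without AVP replicate 2 and to -0.07 without control replicate 1, and Stfa3 to -0.28 without control replicate 2 and likewise without control replicate 3. With each library left out, Cst3 ran from -0.11 to 0.29 and Stfa3 from -0.28 to 1.31. The fold changes of Wfdc17 (0.55 to 0.94), Wfdc21 (0.43 to 0.69) and Slpi (0.48 to 0.85) stayed above 0 in all 18. Stfa1 by itself ranged from 1.17 to 2.24 and Stfa2 from 0.24 to 2.63. Summed with Cstdc5, Stfa1 came to 0.91. The 153 include that sum and the sum of Stfa2l1 and Stfa2, each in place of its first gene. The groups of Wfdc17 and Wfdc21 did not overlap in any of the 18, and those of Slpi overlapped on the deposited scale alone. Many of the 18 could hardly give another outcome. Filters, the replicate block, moderation and the intensity trend leave fold changes and overlap as they were by construction, though not the SE or p. Pseudocounts cannot alter overlap, summed stefins barely touch the WAP genes, and leaving out a library mainly removes values. Over all genes, 3 were higher with a pseudocount of 5, 11 with a filter of 10 FPKM and 1 with no intensity trend. None of these were members. The filter of 10 FPKM leaves 3675 genes to adjust over. The cause was not tested for any of these settings. With each library left out in turn, 0 to 4 genes were higher, the 4 without control replicate 3, and 1 to 3 members reached the smallest exact p. Same-numbered libraries deviated from their group means with correlations of 0.02, -0.01 and -0.04 across genes. Such values cannot decide whether the replicate numbers stand for a shared animal or batch, which remains unknown. With a replicate block, 0 genes were higher or lower. Summing near-identical stefin pairs was chosen after seeing the data.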
